A study of Mus musculus with 6 samples.

Results

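The genes described here encode the activating receptor NKp46, the Fc receptor CD16, the SLAM family of receptors and the adaptors that act below them in natural killer (NK) cells. The set was given as 10 gene symbols (Ncr1, Fcgr3, Cd244a, Cd48, Slamf6, Slamf7, Cd84, Ly9, Sh2d1a and Sh2d1b1), and 9 of them matched 1 row each among the 37991 gene rows of the count files. The adaptor gene Sh2d1b1 matched no row and is not analysed here. Their Ensembl IDs in the files are ENSMUSG00000062524 (Ncr1, chromosome 7), ENSMUSG00000005696 (Sh2d1a, chromosome X) and, on chromosome 1, ENSMUSG00000059498 (Fcgr3), ENSMUSG00000004709 (Cd244a), ENSMUSG00000015355 (Cd48), ENSMUSG00000015314 (Slamf6), ENSMUSG00000038179 (Slamf7), ENSMUSG00000038147 (Cd84) and ENSMUSG00000004707 (Ly9). RNA sequencing was done on NK cells from mouse spleen that carried CD27 and CD11b, with the C57BL6 background in every library. There were 3 Rroid-deficient libraries and 3 wildtype libraries, Rroid being a noncoding RNA transcribed at a regulatory element close to Id2. The labels give no age, no sex and no account of how Rroid was removed, and they leave unsaid whether each library is a mouse of its own or a pool. The p-values therefore measure spread between libraries that may be technical.

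NKp46, encoded by Ncr1, has no signalling motif of its own and pairs with the ITAM-bearing chains Fcer1g and Cd247. CD16, encoded in mouse by Fcgr3, binds the constant part of IgG and lets NK cells kill antibody-coated targets through the same kind of chain. SLAM family receptors mostly bind a copy of themselves on a neighbouring cell, whereas 2B4 (Cd244a) binds CD48. The tails of these receptors, other than the GPI-anchored CD48, carry tyrosine motifs that recruit SAP (Sh2d1a) or the EAT-2 adaptors (Sh2d1b1 and Sh2d1b2). With these adaptors the receptors activate NK cells, and without them they can recruit inhibitory phosphatases.

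Reads assigned to genes numbered 6146465 to 7363793 in the deficient libraries and 5823626 to 9216430 in the wildtype libraries. Where a gene had no count, up to 3 reads remain possible, or 0.326 to 0.515 counts per 1000000 assigned reads (CPM), for counting error only. Id2, the gene next to the element, had 38.9, 66.7 and 81.2 CPM in deficient libraries 1 to 3, against 467.5, 338 and 341.5 CPM in wildtype libraries 1 to 3 (log2 fold change -2.62, edgeR adjusted p = 0.0308), and the Rroid transcript itself is not analysed here. Id2 did not pass in edgeR once any 1 library was left out (adjusted p 0.0589 to 0.316), although the log2 fold change stayed between -2.86 and -2.37. Both genes of the sort, Cd27 and Itgam, were detected in every library. All 10 NK cell markers had counts in every library, Pax5 of B cells had no count in any library, and neither did Cd6 and Cd8a of T cells or Cd14, S100a8 and Clec9a of myeloid cells. Genes of the tested set with a count of 0 made up 5.57%, 2.43% and 0.392% in deficient libraries 1 to 3, and 5.63%, 0.281% and 0.23% in wildtype libraries 1 to 3, so the library numbered 1 had the highest share in both genotypes. Without both libraries numbered 1, the log2 fold changes of the receptor and adaptor genes were -0.18 for Ncr1, -0.66 for Fcgr3, 0.25 for Cd244a, 0.12 for Cd48, 0.37 for Slamf6, 0.16 for Slamf7, 0.32 for Cd84, 0.29 for Ly9 and 0.17 for Sh2d1a, and edgeR passed none of them.

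Id2 encodes an inhibitor of the E proteins, transcription factors that bind the DNA letters CANNTG. The 250 bases before the annotated start are therefore shown for Ncr1, the most abundant of the genes, and for the 3 genes whose libraries did not overlap between the genotypes. They were taken from RefSeq on build GRCm38.p6, read 5′ to 3′ on the gene's strand, and capitals mark each CANNTG, a motif that reads the same on both strands. The positions are chr7:4337465-4337714 (plus strand) for Ncr1, chr1:171059404-171059653 (minus strand) for Fcgr3, chr1:171558943-171559192 (plus strand) for Cd244a and chr1:171839447-171839696 (plus strand) for Cd84.
Ncr1: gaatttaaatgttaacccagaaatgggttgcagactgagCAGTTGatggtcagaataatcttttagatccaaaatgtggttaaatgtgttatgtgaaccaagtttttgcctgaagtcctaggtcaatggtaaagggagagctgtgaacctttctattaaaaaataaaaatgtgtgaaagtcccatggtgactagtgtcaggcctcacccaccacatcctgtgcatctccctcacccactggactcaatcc
Fcgr3: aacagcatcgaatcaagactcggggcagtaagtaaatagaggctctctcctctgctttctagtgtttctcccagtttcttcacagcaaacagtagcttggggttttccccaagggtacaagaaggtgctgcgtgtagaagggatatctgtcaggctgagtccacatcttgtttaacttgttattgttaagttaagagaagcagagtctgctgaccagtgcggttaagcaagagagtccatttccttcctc
Cd244a: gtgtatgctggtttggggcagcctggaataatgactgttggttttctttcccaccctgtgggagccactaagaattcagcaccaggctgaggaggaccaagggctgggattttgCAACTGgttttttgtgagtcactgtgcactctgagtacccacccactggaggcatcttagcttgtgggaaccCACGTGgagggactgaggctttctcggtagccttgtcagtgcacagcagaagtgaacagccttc
Cd84: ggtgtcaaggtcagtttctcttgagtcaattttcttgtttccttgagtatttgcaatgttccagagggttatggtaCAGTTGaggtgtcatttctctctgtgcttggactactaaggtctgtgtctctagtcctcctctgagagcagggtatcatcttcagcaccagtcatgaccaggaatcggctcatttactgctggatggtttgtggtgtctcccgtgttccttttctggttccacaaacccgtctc
RefSeq gave a window for 8 of the 10 genes. CANNTG was found at 1 place in the window of Ncr1, at 2 in that of Cd244a, at 1 in that of Cd84 and at none in that of Fcgr3. Over the 8 genes, which include Sh2d1b1 and leave out Ly9 and Sh2d1a, 7 had at least 1 match. Some genes had more than 1 window, and 8 of their 10 windows held a match, against 66.2% of all 32851 windows of this length. The forms CAGCTG and CACCTG, searched on both strands, were in the windows of 0 of the 8 genes and in 27.7% of all windows. A match is a description of the letters and not of a bound site.

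The levels of the genes were first set in order, per 1000 bases of annotated exon in CPM (RPKM), since only a value per length can be compared between genes. Ncr1 stood far above the others at 610 ± 39.9 RPKM in deficient and 659 ± 5.62 RPKM in wildtype libraries (SD, n = 3 each), and 0.346% of the genes tested that have a length lay above it. Cd48, the ligand of 2B4, followed with 125 ± 8.57 RPKM in deficient and 114 ± 16.4 RPKM in wildtype libraries. Slamf7, the receptor also called CRACC, had 108 ± 13.9 RPKM in deficient and 85.2 ± 10.4 RPKM in wildtype libraries.

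Ly9, Cd244a and Cd84 formed a middle range. Ly9 had 60.6 ± 9.38 RPKM in deficient and 54.8 ± 10.1 RPKM in wildtype libraries. Cd244a had 60.3 ± 4.32 RPKM in deficient and 47.4 ± 3.68 RPKM in wildtype libraries. Cd84 had 45.9 ± 1.998 RPKM in deficient and 34.8 ± 3.04 RPKM in wildtype libraries. These 3 receptor genes had similar levels per length, and neighbours among them overlapped in their ranges over the 6 libraries.

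Fcgr3 and the adaptor gene Sh2d1a came next, and Slamf6 was the lowest. Fcgr3 had 15.2 ± 1.71 RPKM in deficient and 28.6 ± 6.92 RPKM in wildtype libraries. Sh2d1a had 14.2 ± 1.84 RPKM in deficient and 12.8 ± 1.40 RPKM in wildtype libraries. Slamf6, the homophilic receptor Ly108, had 2.91 ± 1.66 RPKM in deficient and 2.16 ± 0.808 RPKM in wildtype libraries, and 75.9% of the genes tested that have a length lay above it. In this order only the steps from Ncr1 to Cd48, from Slamf7 to Ly9 and from Sh2d1a to Slamf6 separated neighbours whose ranges over the 6 libraries did not overlap. With the longest transcript as the length, Cd84 moved ahead of Cd244a, at 73.7 RPKM over all libraries in place of 40.4 RPKM, the mean of Sh2d1a was 27.0 in place of 13.5 RPKM and that of Slamf6 was 4.79 in place of 2.54 RPKM.

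**Figure D1:**
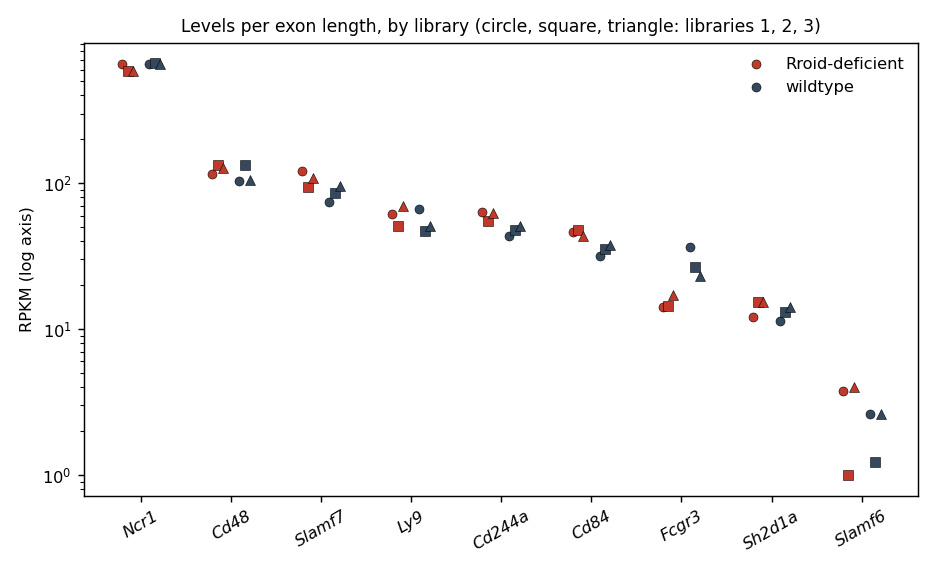
Level of each gene per exon length in RPKM on a log axis, 1 point per library, with Rroid-deficient libraries in red on the left and wildtype libraries in dark blue on the right of each gene. Ncr1 lies at 584 to 664 RPKM over the 6 libraries and Slamf6 at 0.994 to 3.98 RPKM, with the libraries numbered 2 lowest for Slamf6 in both genotypes.

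The 6 SLAM family genes that were measured are neighbours on chromosome 1. In the annotation of build GRCm38 they run in the order Cd244a, Ly9, Slamf7, Cd48, Cd84 and Slamf6, with Slamf1 between Cd48 and Cd84 and the predicted gene Gm10521 between Cd84 and Slamf6 as the only other protein-coding genes inside. Slamf1 had no count in any of the 6 libraries. Of the summed RPKM of the 6 genes, Cd48 took 31.1% ± 3.38 in deficient and 33.7% ± 3.85 in wildtype libraries (SD, n = 3 each). Slamf7 took 26.8% ± 2.48 in deficient and 25.1% ± 2.41 in wildtype libraries. Slamf6 took 0.71% ± 0.389 in deficient and 0.644% ± 0.255 in wildtype libraries. For these 3 genes the share differed between the genotypes by less than its spread. Ly9 took 14.98% ± 1.69 in deficient and 16.3% ± 3.74 in wildtype libraries, again within the spread. Cd244a took 14.96% ± 0.41 in deficient and 14.003% ± 0.742 in wildtype libraries, and Cd84 took 11.4% ± 0.989 in deficient and 10.3% ± 0.616 in wildtype libraries. For Cd244a and Cd84 the means differed by more than either SD, while the libraries of the genotypes overlapped. The sum itself was 412, 381 and 416 RPKM in deficient libraries 1 to 3, against 323, 350 and 343 RPKM in wildtype libraries 1 to 3, so that the groups did not overlap. The sum was not tested. Among single genes, 12.4% of all genes tested had groups that did not overlap. Cd48 and Slamf7, the largest parts of the sum, each overlapped between the genotypes.

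The comparison of genotypes asked whether loss of Rroid, with the low Id2 of these cells, altered the receptors. None of the 9 genes passed over the 11724 genes tested (quasi-likelihood test of edgeR, Benjamini-Hochberg adjusted p at most 0.05), and 0.0171% of all genes tested did, 0.00853% as higher and 0.00853% as lower in deficient libraries. None of the 9 passed in the other tools either, where the share of all genes that passed was 0.569% in DESeq2, 0.00853% in limma-voom, 0.0682% in limma-voom with quality weights and 0.495% in edgeR without a filter. At an unadjusted p under 0.05 the count was 0 of 9 in edgeR, against 5.29% of all genes tested, and it was 1 of 9, Fcgr3, in DESeq2, against 7.53% of the genes to which it gave a p. In 3 of the 9 the ranges of the genotypes were apart, against 12.4% of all genes tested. These were Cd244a and Cd84, higher in deficient libraries (6.03% of all genes tested), and Fcgr3, lower in deficient libraries (6.33%). Among genes that averaged 100 CPM or more, as Cd244a and Cd84 did, 15% were apart in either direction and 9.5% were higher in deficient libraries. The log2 fold change was positive in 7 of the 9, with a median of 0.15, against a median of 0.02 over all genes tested, of which 51.6% were positive. Of the 9 genes, 6 averaged over 100 CPM in both genotypes, unlike most genes tested, so the medians are of unlike genes. Most of the 9 genes are neighbours on 1 chromosome, and the counts describe the set only.

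Ncr1 varied least of the 9 genes over wildtype libraries, and Cd84 did over deficient libraries (coefficient of variation 4.36%). Ncr1 had 1011, 900 and 910 CPM in deficient libraries 1 to 3, against 1006, 1023 and 1017 CPM in wildtype libraries 1 to 3. Deficient library 1 lay within the wildtype range, and the other deficient libraries lay below it. Its log2 fold change was -0.11 (SE 0.14, 95% interval from -0.41 to 0.19, edgeR adjusted p = 0.938), which places the ratio of deficient to wildtype between 0.751 and 1.14. The coefficient of variation was 6.54% over deficient libraries and 0.853% over wildtype libraries, where counting alone gives 1.26% for deficient and 1.17% for wildtype libraries. In 159 tested genes with a mean within 2-fold of that of Ncr1, the median coefficient of variation was 11.1% over deficient and 12.9% over wildtype libraries.

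Fcgr3 had the lowest log2 fold change of the 9. It had 24.5, 24.96 and 29.9 CPM in deficient libraries 1 to 3, against 63.1, 46.3 and 39.8 CPM in wildtype libraries 1 to 3, from counts of 170, 153 and 216 in deficient and of 421, 431 and 253 in wildtype libraries. Every deficient library lay below every wildtype library, and wildtype library 1 was the highest. The ratio of deficient to wildtype was 0.532 (log2 fold change -0.91, SE 0.41, 95% interval -1.82 to 0.000718), with an unadjusted p of 0.0501 and an adjusted p of 0.914 in edgeR. The interval thus spans no difference to a level in deficient cells of 0.283 of that in wildtype.

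Fcgr3 shares sequence with the inhibitory Fc receptor gene Fcgr2b, and 2.54% of the 100-base stretches of its annotated transcripts, the length of the reads, also occur there. Fcgr2b had 4.32, 3.92 and 29.6 CPM in deficient libraries 1 to 3, against 26.5, 36.0 and 27.2 CPM in wildtype libraries 1 to 3 (log2 fold change -1.24, edgeR adjusted p = 0.925). Deficient libraries 1 and 2 were low for Fcgr2b, while deficient library 3 lay within the wildtype range. Of 11 other Fc receptor genes Fcgr2b was the 1 with enough counts to be tested, and Fcgr1, Fcgr4, Fcer1a, Fcrl1, Fcamr, Fcmr and Fcgrt had no count in any library.

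In a bulk library, fewer cells of a type and less RNA per cell cannot be told apart, so other cell types were set beside these values. The summed markers of myeloid cells, which also carry Fcgr3, had 30.4, 23.7 and 30.3 CPM in deficient libraries 1 to 3, against 5.24, 12.8 and 8.02 CPM in wildtype libraries 1 to 3. In the deficient libraries most of that was Cd68, and 8 of the 11 myeloid markers had any count. Cd68 was higher in every deficient library, as were 6.03% of all genes tested (log2 fold change 2.27, edgeR adjusted p = 0.914). Csf1r, the other myeloid marker with enough counts to be tested, overlapped (log2 fold change -0.61, edgeR adjusted p = 0.966). Summed NK cell markers had 10631, 10326 and 9822 CPM in deficient libraries 1 to 3, against 13999.8, 12810 and 11481 CPM in wildtype libraries 1 to 3. Without Gzma, the granzyme A gene, the sum of the other 9 NK cell markers overlapped between the genotypes (8316, 7600.5 and 7182 CPM in deficient libraries, 8504, 8892 and 7391 CPM in wildtype libraries). Il2rb, the largest part of that sum, had a log2 fold change of 0.10. Of the 10 NK cell markers, Gzma, Klrb1c and Klrk1 alone did not overlap, against 12.4% of all genes tested. These were all lower in deficient libraries (6.33% of all genes tested). The log2 fold change was -0.81 for Gzma (edgeR adjusted p = 0.543), -0.33 for Klrb1c and -0.36 for Klrk1 (edgeR adjusted p = 0.914 for each). Summed markers of ILC1, innate lymphoid cells that also carry NKp46, had 58.5, 54.3 and 57.0 CPM in deficient libraries 1 to 3, against 33.0, 47.8 and 45.9 CPM in wildtype libraries 1 to 3, with 5 of 5 detected. Tnfsf10 and Il7r made up most of that sum in the deficient libraries, while Cxcr6 had 0.577, 2.61 and 0.83 CPM in deficient libraries 1 to 3, against 15.7, 4.83 and 1.73 CPM in wildtype libraries 1 to 3 (log2 fold change -2.46, edgeR adjusted p = 0.925), and Itga1 had a log2 fold change of -0.90 (edgeR adjusted p = 0.957). The part of these levels in the Ncr1 and Fcgr3 values was not tested.

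Among the SLAM family, Cd84 had the smallest p. Cd84, a homophilic receptor, had 292, 298 and 274 CPM in deficient libraries 1 to 3, against 198, 221 and 236 CPM in wildtype libraries 1 to 3. The groups did not overlap, with the deficient libraries closer together than the wildtype ones. Its log2 fold change was 0.40 (SE 0.19, 95% interval -0.02 to 0.81, edgeR adjusted p = 0.914), a ratio of deficient to wildtype of 1.32.

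Cd244a, which encodes the CD48 receptor 2B4, had 308, 269.99 and 304 CPM in deficient libraries 1 to 3, against 213, 232 and 249 CPM in wildtype libraries 1 to 3. Here too the groups did not overlap. For Cd244a the log2 fold change came to 0.35 (SE 0.19, 95% interval -0.07 to 0.76, edgeR adjusted p = 0.925), a ratio of 1.27. Slamf7 had 557, 429.7 and 499.6 CPM in deficient libraries 1 to 3, against 341, 391.7 and 437 CPM in wildtype libraries 1 to 3. Deficient library 2 and wildtype library 3 crossed by a small margin, and the other libraries were apart. The log2 fold change of Slamf7 was 0.35 (SE 0.18, 95% interval -0.06 to 0.75, edgeR adjusted p = 0.925). A stretch of 423 exonic bases of Slamf7 is shared with the antisense gene Gm37787 in the annotation used here. The kit does not mark strand and the count files hold no row for Gm37787, so reads from it could have been counted for Slamf7.

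Cd48 and Ly9 had groups that overlapped widely. Cd48, the GPI-anchored ligand of 2B4 and of CD2, had 138, 158 and 151 CPM in deficient libraries 1 to 3, against 124, 158 and 126 CPM in wildtype libraries 1 to 3 (log2 fold change 0.13, 95% interval -0.37 to 0.64, edgeR adjusted p = 0.954). Ly9, the homophilic receptor CD229, had 203, 168 and 230.1 CPM in deficient libraries 1 to 3, against 219, 156 and 169 CPM in wildtype libraries 1 to 3 (log2 fold change 0.15, 95% interval -0.36 to 0.65, edgeR adjusted p = 0.946). For both genes the difference of the means was smaller than the spread within the wildtype group.

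Slamf6 varied most within each genotype. It had 40.6, 10.8 and 43.1 CPM in deficient libraries 1 to 3, against 28.5, 13.3 and 28.5 CPM in wildtype libraries 1 to 3, from counts of 282, 66 and 312 in deficient and of 190, 124 and 181 in wildtype libraries. The library numbered 2 was the lowest in both genotypes. For Slamf6 the log2 fold change came to 0.43 (SE 0.62, 95% interval -0.95 to 1.81, edgeR adjusted p = 0.944), an interval that reaches past a level 2-fold higher in deficient cells. The coefficient of variation was 57.2% over deficient and 37.4% over wildtype libraries, where counting alone gives 8.54% for deficient and 7.93% for wildtype libraries. In 4136 tested genes with a mean within 2-fold of that of Slamf6, the median coefficient of variation was 43.5% over deficient and 36.9% over wildtype libraries.

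Sh2d1a, the adaptor SAP, had 66.3, 83.9 and 83.9 CPM in deficient libraries 1 to 3, against 62.2, 71.6 and 77.4 CPM in wildtype libraries 1 to 3. The groups overlapped (log2 fold change 0.15, SE 0.29, 95% interval -0.50 to 0.80, edgeR adjusted p = 0.958). Of its 5505 annotated exonic bases, 1465 are shared with Tenm1 on the opposite strand, and reads that fall there are uncertain. Sh2d1b2, the second EAT-2 adaptor gene, was close to the limit of detection, with counts of 28, 3 and 36 in deficient libraries 1 to 3, against 14, 1 and 13 in wildtype libraries 1 to 3 (log2 fold change 1.16, SE 1.38, edgeR adjusted p = 0.937). Its libraries numbered 2 were the lowest in both genotypes, as for Slamf6.

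**Figure D2:**
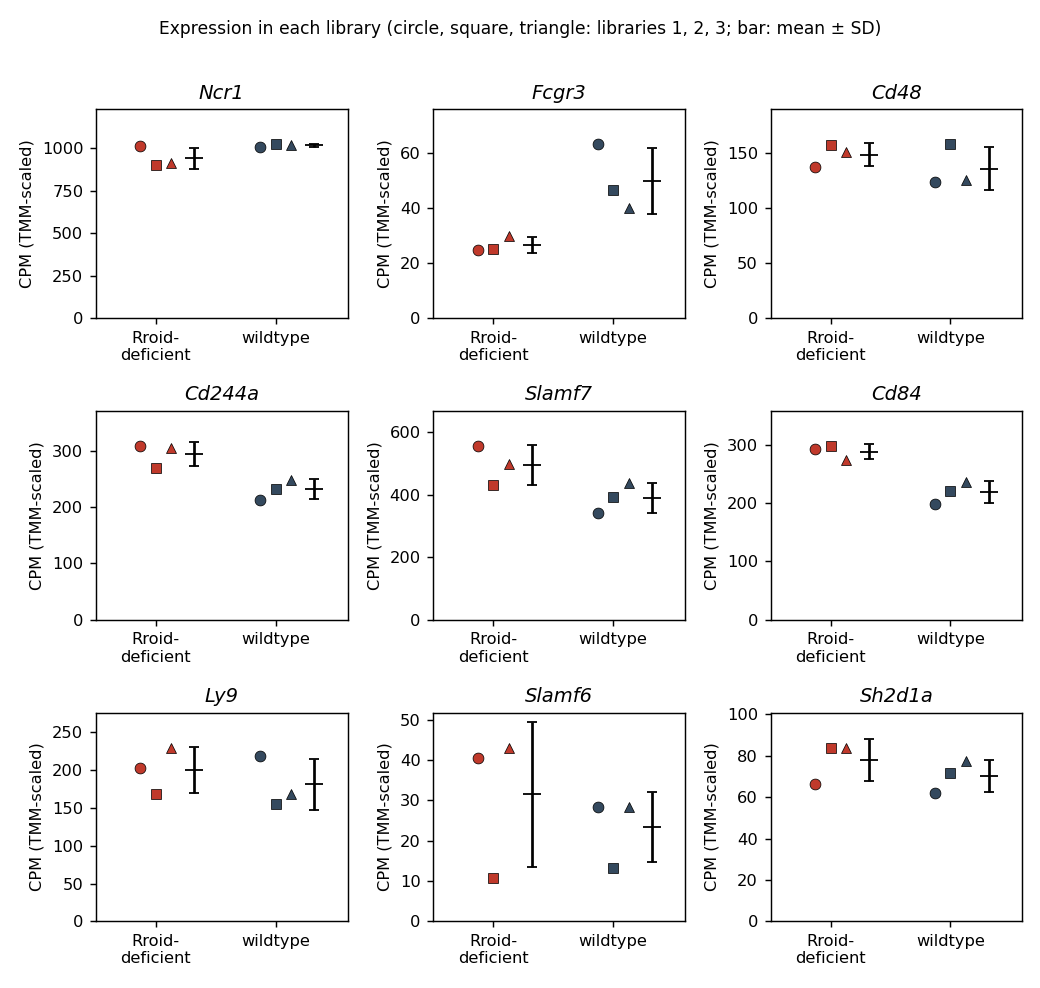
CPM of each gene in each library, with Rroid-deficient libraries in red on the left and wildtype libraries in dark blue on the right of each panel, and the mean ± SD (n = 3) as a bar. Fcgr3, Cd244a and Cd84 show no overlap between the genotypes, with Fcgr3 at 24.5 to 29.9 CPM in deficient libraries and 39.8 to 63.1 CPM in wildtype libraries.

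For 7 of the 9 genes the 95% interval of the log2 fold change lay inside a 2-fold change in either direction, so a larger change than that was outside the interval of Ncr1, Cd244a, Cd48, Slamf7, Cd84, Ly9 and Sh2d1a. The interval reached beyond 2-fold for Fcgr3 and Slamf6, the 2 with the lowest mean CPM. Over all genes tested, 16.4% had an interval inside 2-fold, and of genes at a mean of 100 CPM or more, 75.3% did. The direction of all 9 genes held in each of 14 other fits, which used other normalizations, tests and filters or left out libraries. These fits reuse the same libraries, so a held direction is no separate support.

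**Figure D3:**
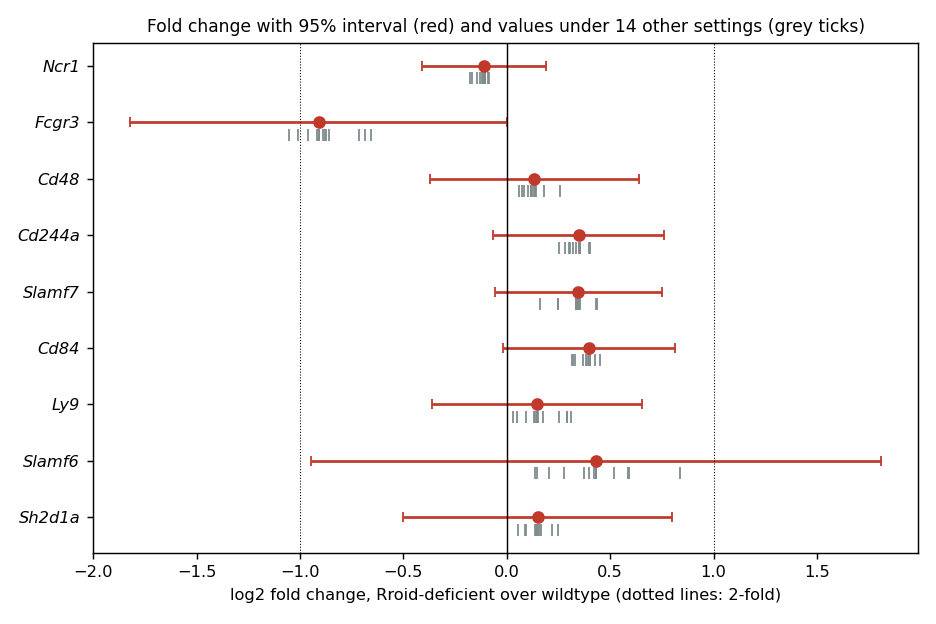
Log2 fold change of each gene, Rroid-deficient over wildtype, with its 95% interval in red, the values under 14 other settings as grey ticks and dotted lines at 2-fold. Every interval includes 0, that of Fcgr3 by the smallest margin (upper bound 0.000718), and the grey ticks of each gene stay on 1 side of 0.

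T cells also express SLAM receptor genes, so markers of T and B cells were set beside these values. Summed T cell markers had 91.7, 121 and 147 CPM in deficient libraries 1 to 3, against 24.7, 17.2 and 18.7 CPM in wildtype libraries 1 to 3. Cd3g and Cd3d, chains of the T cell receptor complex, made up most of the sum in the deficient libraries (edgeR adjusted p = 0.131 for Cd3g and 0.543 for Cd3d). They were the 2 of 10 markers whose groups did not overlap, against 12.4% of all genes tested, and 3 of the 10 had enough counts to be tested. Cd4 and Cd8b1 had counts of 57 and 37 in wildtype library 1 and none in any other library. Trac overlapped between the genotypes. Of the 10 markers, 8 had any count, Cd6 and Cd8a had none, and Cd3e had counts of 0, 0 and 0 in deficient libraries 1 to 3 against 0, 3 and 0 in wildtype libraries 1 to 3. Summed B cell markers had 55.9, 11.3 and 25.2 CPM in deficient libraries 1 to 3, against 15.6, 20.1 and 14.3 CPM in wildtype libraries 1 to 3, with 6 of 8 detected. Cr2, a complement receptor gene, had 42.5, 9.63 and 9.96 CPM of that in deficient libraries 1 to 3, against 0, 8.80 and 8.49 CPM in wildtype libraries 1 to 3. Its groups did not overlap, as in 12.4% of all genes tested (log2 fold change 1.84, edgeR adjusted p = 0.925). Cd79a and Cd22, the other B cell markers with enough counts to be tested, overlapped. Their log2 fold changes were -0.60 for Cd79a and -0.17 for Cd22 (edgeR adjusted p = 0.968 and 0.988). The part of the T and B cell levels in the SLAM gene values was not tested.

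Signalling partners were taken from lists made by their known roles. Of 14 listed partners of the SLAM receptors and SAP, 11 were tested, and in edgeR 0 passed as higher and 0 as lower, with 1 at an unadjusted p under 0.05. The median log2 fold change of the 11 was 0.39, against 0.02 over all genes tested, with 9 positive and 2 negative. Most of the 11 averaged over 100 CPM, a level reached by 1758 of the 11724 genes tested, so the medians are of unlike genes. By mean CPM, which is not divided by length, the highest were Fyn, Lck and Cd2. Fyn, the kinase that SAP recruits, had 373, 345 and 274 CPM in deficient libraries 1 to 3, against 354, 377 and 321 CPM in wildtype libraries 1 to 3. Lck, another Src family kinase gene, had 419, 284 and 352 CPM in deficient libraries, against 434, 300.2 and 218 CPM in wildtype libraries. Cd2, the adhesion receptor that also binds CD48, had 452, 298 and 291 CPM in deficient libraries, against 356, 272 and 291 CPM in wildtype libraries. In these 3 genes the groups overlapped. In Ptpn6, which encodes the inhibitory phosphatase SHP-1, they did not, and this gene was singled out after its values were seen. It had 141, 98.7 and 99.3 CPM in deficient libraries 1 to 3, against 73.4, 42.1 and 70.6 CPM in wildtype libraries 1 to 3 (log2 fold change 0.86, SE 0.32, edgeR unadjusted p = 0.0234 and adjusted p = 0.906). Prkcq, which encodes protein kinase C theta, was the other partner whose groups did not overlap, with 362, 349 and 300.1 CPM in deficient libraries 1 to 3, against 216, 274 and 272 CPM in wildtype libraries 1 to 3 (log2 fold change 0.41, edgeR unadjusted p = 0.0604 and adjusted p = 0.915). That 2 of 11 partners were apart is set against 12.4% of all genes tested.

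Of 16 listed partners of NKp46 and CD16 signalling, 15 were tested, and in edgeR 0 passed as higher and 0 as lower, with 0 at an unadjusted p under 0.05. Their median log2 fold change was 0.08, with 9 positive and 6 negative. Fcer1g, the chain that carries the signal of both receptors, had 779, 860.2 and 868 CPM in deficient libraries 1 to 3, against 1482, 867 and 878 CPM in wildtype libraries 1 to 3 (log2 fold change -0.36, edgeR adjusted p = 0.925). Wildtype library 1 alone was high, and the other wildtype libraries lay close to deficient libraries 2 and 3. Cd247, the zeta chain, had 109.98, 137 and 138 CPM in deficient libraries, against 127, 131 and 121 CPM in wildtype libraries (log2 fold change 0.02, edgeR adjusted p = 0.996). The other partners of highest mean CPM were Cbl, a ubiquitin ligase that restrains these receptors, with 437, 455 and 319 CPM in deficient against 273, 408 and 328 CPM in wildtype libraries, and the scaffold gene Lcp2 with 395, 348 and 431 CPM in deficient against 307, 381 and 391 CPM in wildtype libraries.

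**Figure D4:**
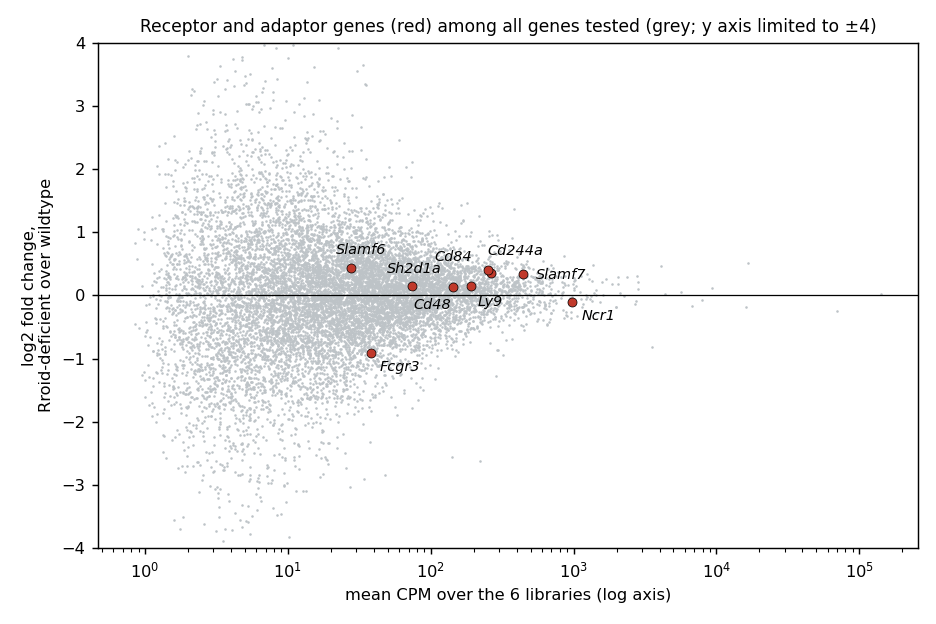
Log2 fold change, Rroid-deficient over wildtype, against the mean CPM on a log axis for all 11724 genes tested (grey), with the 9 receptor and adaptor genes in red and the fold axis limited to ±4. Fcgr3 lies at -0.91, and the 6 SLAM family genes lie above 0 at log2 fold changes of 0.13 to 0.43.

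The genes whose pattern over the 6 libraries was most like that of Ncr1 were sought among 1735 others that averaged 100 CPM or more, by the root mean square difference of log2 CPM centred on each gene's mean. They were Tut4 (0.03), Ccnl2 (0.04) and Tpm4 (0.05), against a median of 0.29 over all candidates. The root mean square of Ncr1 about its own mean was 0.08, so any gene that varied little lay near it. For Slamf6 the nearest genes were Nfkbiz (0.36), Glipr2 (0.39) and Cflar (0.41), against a median of 0.79. The root mean square of Slamf6 about its own mean was 0.75. Nfkbiz had 139, 52.5 and 141 CPM in deficient libraries 1 to 3, against 118, 86.8 and 90.8 CPM in wildtype libraries 1 to 3, with the libraries numbered 2 lowest in both genotypes. The likeness is a description over the 6 libraries of this comparison, and the low libraries numbered 2 of Nfkbiz follow from its choice by pattern.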

How the data were processed

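The kit for amplifying RNA was Ovation RNA-Seq System V2, which does not mark strand, and single reads of 100 bases were sequenced, with kit and read length per the labels' protocols. Per the submitters' processing notes, processing involved DESeq2, HTSeq 0.6.1, TopHat2 2.1.0 and Trimmomatic 0.33 with builds mm9 and NCBIM37, and the sources used here give no settings. The authors deposited raw counts per Ensembl gene, 1 file per library. The 5 closing entries that name no gene held 79.96% to 84.4% of listed reads and entered neither library sizes nor tests. Symbols (for 32919 genes) and exon lengths came from an annotation of build GRCm38, and lengths were known for 96.1% of tested genes.

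Libraries were grouped by genotype. Counts were tested with edgeR 4.0.16 (R 4.3.3): filterByExpr, TMM, a quasi-likelihood fit with genotype as its 1 term, Benjamini-Hochberg adjustment over all 11724 genes and a threshold of 0.05. CPM were scaled by TMM. Each SE is the fold change over the root of its F statistic. Within a group, every pair of libraries differed by more than counting noise (lowest chi-square 22.1 per degree of freedom). Alternatives were DESeq2 1.42.0, RLE size factors, limma-voom (3.58.1) with and without quality weights, no filter, a stricter filter (10 counts in 3 libraries, mean 2 CPM), libraries left out, a replicate block and thresholds of 0.1 and 0.01.

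Named were the 10 genes, per partner list the passing and the 3 of highest mean CPM, for Ncr1 and Slamf6 the 3 nearest patterns, and Id2, Slamf1 and Sh2d1b2. Members and lists were chosen with earlier results of these data known. Ptpn6, Prkcq, Fcgr2b, Cd247, Cd3g, Cd3d, Cd3e, Cd68, Cr2, Gzma and the other markers were named after their values were seen. The value of 1 marker is not reported here. Figures were drawn with matplotlib 3.10.9.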

Additional observations from a re-analysis of the deposited data

How the results depend on the processing

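In 14 alternative fits, none of the 9 receptor and adaptor genes passed (lowest adjusted p 0.564, in DESeq2 for Fcgr3), and in 126 of 126 values their direction held. As the fits reuse the same libraries, these values are not independent. The log2 fold change of Fcgr3 ranged from -1.05 to -0.66, and its unadjusted p from 0.0349 in DESeq2 to 0.119. That of Slamf6 was 0.84 without deficient library 2 and 0.13 without deficient library 3. With any 1 library left out, that of Cd48 ranged from 0.06 to 0.26, that of Ly9 from 0.03 to 0.29 and that of Sh2d1a from 0.05 to 0.25. That of Slamf7 was 0.16 without both libraries numbered 1. In the 3 partner lists no gene passed in any of these fits or at thresholds of 0.1 and 0.01.

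The number of all genes that passed, 2 in edgeR, was 65 in DESeq2, 1 in limma-voom, 8 with quality weights, 98 without a filter and 0 at a threshold of 0.01. It was 0 to 0 when any 1 library was left out (508 to 966 genes at an unadjusted p under 0.05) and 0 without both libraries numbered 1 (767 at an unadjusted p under 0.05), so Id2 did not pass in edgeR without any 1 library (adjusted p 0.0589 to 0.316). The cause was not tested. With the replicate number as a block it was 0 (455 at an unadjusted p under 0.05), and 0 of the 9 genes passed. The numbers did not pair the samples: deviations of same-numbered libraries correlated at 0.0141, -0.0168 and 0.0399 over genes, and not every library correlated best with its own number.

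As alternatives chosen after seeing the data, the number of receptor and adaptor genes whose groups did not overlap was 3 to 5 with any 1 library left out, against 20.1% to 26.7% of all genes tested, and 5 without both libraries numbered 1, against 37.5%. Leaving out a library cannot close a gap that all 6 libraries show, so these counts are no sign of stability. Lengths of the longest transcript moved the percentile of a gene's level, averaged over libraries, by more than its spread for 4 genes, to 99.6 for Ncr1, 97.2 for Cd48, 94.6 for Cd84 and 81.8 for Sh2d1a, and plain library sizes did so for 0.

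Depth limits Sh2d1b2, with counts of 3 in deficient library 2 and 1 in wildtype library 2, near the 3 reads that a count of 0 allows.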
